A study of Rattus norvegicus with 9 samples.

Results

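The genes described are those of the xenobiotic receptors CAR (Nr1i3) and PXR (Nr1i2), of the cytochromes P450 Cyp2b1, Cyp2b2 and Cyp2b3, and of the P450 reductase (Por). They are 6 of the 18166 genes named on whole-transcript Affymetrix arrays of laser-microdissected rat liver, and each had a single probe set, taken by its single gene symbol. The 9 arrays came from female F344 rats. All animals were injected 2 times with retrorsine (30 mg/kg, an interval of 2 weeks), and part of the liver was removed 4 weeks after the last injection. Retrorsine is a plant alkaloid that blocks division of most hepatocytes. Small hepatocyte-like progenitor cells (SHPCs) then form clusters as the liver regrows. The first group was 3 arrays of SHPC clusters from livers that also received sorted Thy1+ cells of DPPIV+ donors through the spleen, the recipients being DPPIV− rats. The second was 3 arrays of SHPC clusters from livers without transplantation. The last was 3 arrays of hepatocytes lying beside SHPCs, without transplantation, titled as controls. For these control arrays the description label names SHPCs with transplantation, against its cell type label and title, which were followed. The sources used here give neither the age of the animals nor the day of sampling nor which arrays share an animal. The p-values below therefore measure only the spread between these arrays, which may be technical, and are too small if arrays of the same group share an animal. A fit without a block does not account for arrays of different groups that share an animal.

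CAR and PXR are nuclear receptors of hepatocytes that sense drugs, toxins and bile acids. In the resting hepatocyte CAR is held in the cytoplasm by chaperones. After activation it enters the nucleus, pairs with the retinoid X receptor and switches on genes of drug metabolism, with Cyp2b genes as its best-known rodent targets and Cyp3a genes as those of PXR. The enzymes they encode sit in the endoplasmic reticulum, where Por passes them electrons from NADPH. Cyp2b enzymes are found mostly around the central veins, and they belong to the genes that phenobarbital induces most strongly in rat liver.

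The promoter windows of the Cyp2b genes are shown because Cyp2b1 and Cyp2b2, whose levels moved apart below, are close copies of each other. Each window runs from 250 bases before to 50 bases after the annotated start of the gene in the RefSeq annotation of build GRCr8, on the plus strand of chromosome 1. The windows span chr1:90645869-90646168 for Cyp2b1, chr1:90722031-90722330 for Cyp2b2 and chr1:90780242-90780541 for Cyp2b3, and capitals mark matches to TTGCNNAA, a core that C/EBP transcription factors of hepatocytes can bind, searched on both strands (TTNNGCAA on the other).
Cyp2b1: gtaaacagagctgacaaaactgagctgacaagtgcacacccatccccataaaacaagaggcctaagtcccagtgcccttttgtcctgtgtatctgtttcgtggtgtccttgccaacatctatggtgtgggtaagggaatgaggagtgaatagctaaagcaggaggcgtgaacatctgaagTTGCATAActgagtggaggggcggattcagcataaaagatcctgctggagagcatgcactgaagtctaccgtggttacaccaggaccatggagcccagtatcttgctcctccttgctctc
Cyp2b2: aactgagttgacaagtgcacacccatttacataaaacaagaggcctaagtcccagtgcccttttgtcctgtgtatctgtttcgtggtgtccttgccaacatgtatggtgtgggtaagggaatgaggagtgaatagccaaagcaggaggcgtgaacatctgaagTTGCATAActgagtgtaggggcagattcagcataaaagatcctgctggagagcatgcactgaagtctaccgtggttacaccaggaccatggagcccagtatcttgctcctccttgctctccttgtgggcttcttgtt
Cyp2b3: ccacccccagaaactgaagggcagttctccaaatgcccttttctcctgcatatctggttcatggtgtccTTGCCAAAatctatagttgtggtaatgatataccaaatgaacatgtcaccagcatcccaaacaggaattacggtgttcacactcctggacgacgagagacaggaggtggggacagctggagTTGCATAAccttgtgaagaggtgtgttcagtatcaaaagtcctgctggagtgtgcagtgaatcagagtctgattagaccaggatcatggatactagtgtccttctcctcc
Where the windows of Cyp2b1 and Cyp2b2 could be aligned, 275 of 283 bases were identical (97.2%), with 0 gaps. Cyp2b3 shared 82.6% of 242 aligned bases with Cyp2b1 and 80.6% with Cyp2b2, leaving out 69 gap positions in each alignment. All of these windows held TTGCATAA, at 70 to 63 bases upstream of the start in Cyp2b1, at 87 to 80 in Cyp2b2 and at 60 to 53 in Cyp2b3, and Cyp2b3 had a further match, TTGCCAAA, at 181 to 174. The core was found in 10.6% of 33469 rat promoter windows of that length. AGGTCA and AGTTCA, hexamers that nuclear receptors can bind, had 0 matches on either strand in the windows of Cyp2b1, Cyp2b2, Cyp2b3 and Nr1i3. They occurred in 16.2% and 14.5% of all windows. Nr1i2 held AGTTCA once and Por held AGGTCA once. The phenobarbital-responsive enhancer that CAR binds at rodent Cyp2b genes lies farther upstream than these windows. In the RefSeq gene order Cyp2b1, 1 numbered locus, Cyp2b2 and Cyp2b3 lie side by side.

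Levels are given as log2 of the deposited intensity and differences on the same log2 scale with limma's SE from a single fit over all 9 arrays and 15793 tested genes. On all 9 arrays the 6 genes exceeded the 25th percentile of that array's probe sets, so each was tested whatever its group levels. The genes were chosen with results from these arrays known, including the call of Cyp2b1, so their levels and differences are a description without a test. Array 2 of the SHPCs and array 2 of the hepatocytes stood apart. They had medians of 23.0 to 24.1 on the linear scale against 19.6 to 20.6 on the other 7 arrays, and a narrower range of log2 values (SD of 1.94 to 1.98 against 2.09 to 2.13). No array of transplanted livers was of that kind.

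The hepatocyte origin of the material was visible on all arrays. The 8 measured of 10 hepatocyte markers summed to 42628 to 43587 on the linear scale in SHPCs of transplanted livers, 36992 to 42029 in SHPCs and 36467 to 39525 in hepatocytes. Markers of other cell types were measured as well. RMA gives no value of 0, so a level there does not show that such cells were present. The 7 Kupffer cell markers summed to 1883 to 2449, 966 to 1614 and 1279 to 1864 in the same order of groups, and the 6 measured of 7 cholangiocyte markers to 147 to 171, 136 to 146 and 116 to 134. The 4 measured of 7 endothelial markers summed to 693 to 802, 458 to 664 and 514 to 752. The 7 measured of 8 stellate cell and fibroblast markers summed to 780 to 948, 517 to 751 and 620 to 915, and the 6 measured of 7 T, NK and B cell markers to 97.8 to 105, 94.7 to 116 and 101 to 120, with 4 to 5 of 6 above the array's 25th percentile. Of 4 erythroid markers, 0 had a probe set with a single symbol. Summed levels of the hepatocyte, Kupffer, endothelial, stellate and cholangiocyte markers were thus higher on each array of transplanted livers than on each SHPC array. For cholangiocyte markers the nearest arrays were at 146.6 and 146.5. The part of these cell types in the differences below was not tested. In such bulk material, fewer cells that express a gene and less RNA per cell cannot be told apart.

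Nr1i3, the gene of CAR, was lowest in SHPCs of transplanted livers and highest in hepatocytes. Its log2 level was 4.98, 5.28 and 5.14 on arrays 1 to 3 of SHPCs of transplanted livers, 5.68, 5.84 and 6.76 on those of SHPCs, and 7.97, 7.31 and 7.97 on those of hepatocytes. None of the groups overlapped, and SHPC array 3 lay nearest to the hepatocytes. The means were 5.13 ± 0.15, 6.09 ± 0.58 and 7.75 ± 0.39 (SD, n = 3 each). SHPCs of transplanted livers differed from SHPCs by −0.96 ± 0.28 (SE), or 1.94-fold lower, and by −2.62 ± 0.28 from hepatocytes, 6.14-fold lower. SHPCs differed from hepatocytes by −1.66 ± 0.28, 3.16-fold lower. The step between the SHPC groups rests partly on SHPC array 3, and it was −0.62 without that array. Without both arrays that stood apart the same differences were −1.08, −2.84 and −1.76. On arrays of transplanted livers Nr1i3 was at linear intensities of 31.6 to 38.8, where log2 differences depend more on background. With log2(value + 16) the difference of Nr1i3 from hepatocytes was −2.18 in SHPCs of transplanted livers and −1.45 in SHPCs.

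Nr1i2, the gene of PXR, did not follow Nr1i3. It lay at 8.35, 8.48 and 8.70 in SHPCs of transplanted livers, at 8.53, 8.71 and 8.77 in SHPCs and at 8.88, 8.56 and 8.26 in hepatocytes. All groups overlapped. The differences were −0.16 between the SHPC groups (95% interval −0.56 to 0.24), 0.10 for SHPCs against hepatocytes (−0.30 to 0.50) and −0.06 for SHPCs of transplanted livers against hepatocytes (−0.46 to 0.34). A change as large as that of Nr1i3 lies outside each of these intervals, while a smaller one is not excluded by them. The second was −0.06 without hepatocyte array 3. The last became 0.04 after median centring of each array, and the difference between the SHPC groups was −0.39 after cyclic loess normalization.

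**Figure D1:**
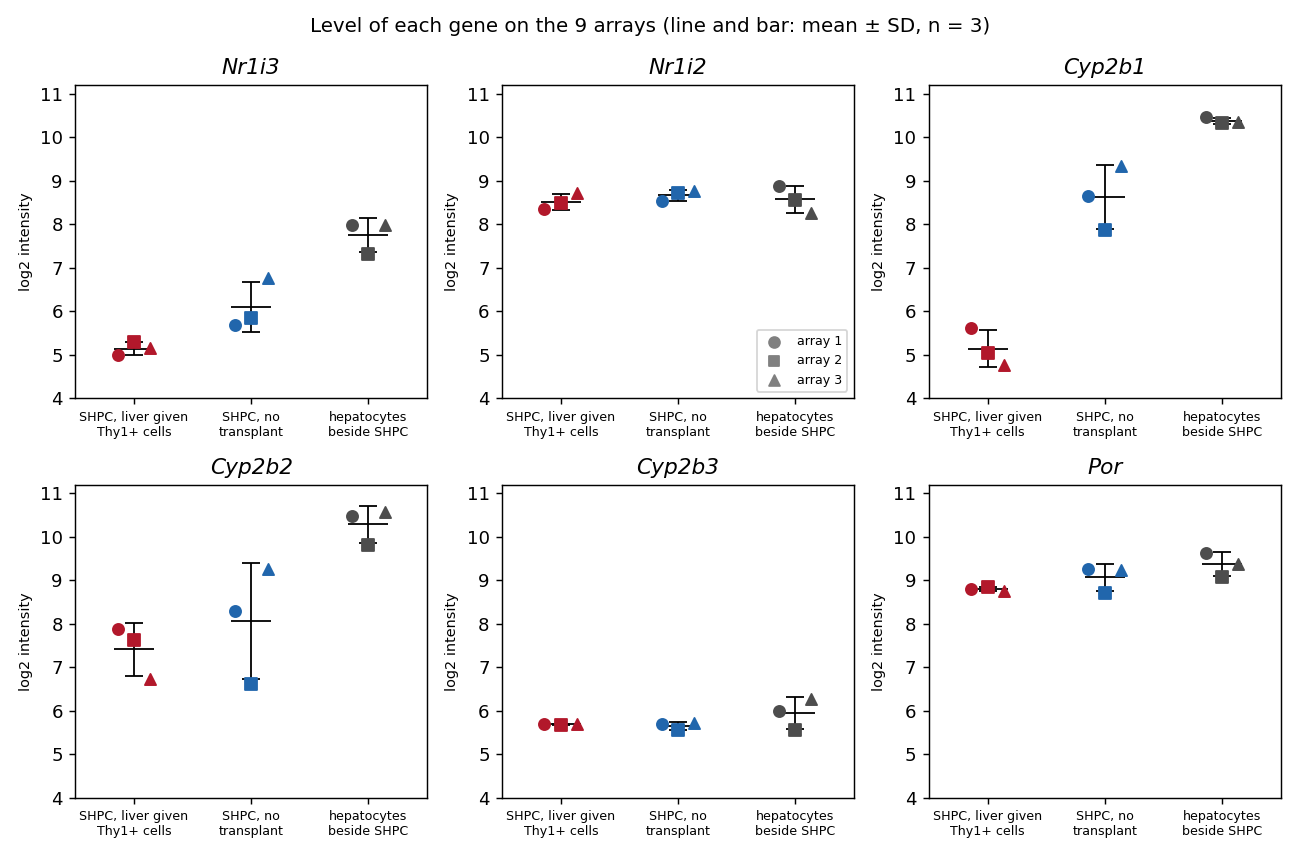
Log2 intensity (y axis) of the 6 genes on each array, by group (x axis), with array numbers as symbols and the mean ± SD of 3 arrays as line and bar. Nr1i3 and Cyp2b1 form 3 steps without overlap, Cyp2b2 separates hepatocytes from both SHPC groups, and Nr1i2 and Cyp2b3 overlap in all groups.

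Cyp2b1 encodes the main phenobarbital-inducible P450 of rat liver, which oxidises many drugs and steroids. Its log2 level was 5.61, 5.04 and 4.77 in SHPCs of transplanted livers, 8.65, 7.87 and 9.34 in SHPCs, and 10.46, 10.32 and 10.34 in hepatocytes. The groups lay in 3 separate ranges, with hepatocytes spread over the narrowest (SD 0.08) and SHPCs over the widest (SD 0.74). As linear intensities, the means were 36.3, 429 and 1326 in the same order of groups. The difference between the SHPC groups is −3.48 ± 0.33 (SE). SHPCs of transplanted livers differed from hepatocytes by −5.23 ± 0.33, or 37.6-fold lower, the lowest value of all 15793 tested genes in that comparison. SHPCs differed from hepatocytes by −1.75 ± 0.33, or 3.36-fold lower. Without both arrays that stood apart these differences were −3.86, −5.26 and −1.40.

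Cyp2b2 encodes a P450 nearly identical to Cyp2b1, also induced by phenobarbital. Its levels were 7.88, 7.63 and 6.73 in SHPCs of transplanted livers, 8.30, 6.62 and 9.26 in SHPCs, and 10.49, 9.81 and 10.57 in hepatocytes. Both SHPC groups lay below hepatocytes on every array, but they overlapped each other, with SHPC array 2 below all arrays of transplanted livers. The differences were −2.88 ± 0.57 (SE), 7.34-fold lower, for SHPCs of transplanted livers against hepatocytes and −2.23 ± 0.57, 4.70-fold lower, for SHPCs against hepatocytes. The difference of SHPCs from hepatocytes was −1.51 without SHPC array 2 and −1.75 without both arrays that stood apart. Between the SHPC groups the difference was −0.65 with a 95% interval of −1.92 to 0.63. It was −1.37 without SHPC array 2, −0.05 without SHPC array 3 and −0.30 without array 3 of the transplanted livers, so single arrays set its size.

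The 2 genes therefore took unequal steps. Within each array, log2 Cyp2b1 minus log2 Cyp2b2 was −2.27, −2.59 and −1.96 in SHPCs of transplanted livers, 0.35, 1.25 and 0.09 in SHPCs, and −0.03, 0.51 and −0.23 in hepatocytes. Its absolute value has no meaning between different probe sets, so only its shift between groups is described. On arrays of transplanted livers Cyp2b1 was nearer to the array median than elsewhere, where log2 differences depend more on background, and with log2(value + 16) its difference between the SHPC groups was −2.997 and that from hepatocytes −4.70. Group means shifted by −2.84 between the SHPC groups and by −2.36 between SHPCs of transplanted livers and hepatocytes, against 0.48 between SHPCs and hepatocytes. All 3 arrays of transplanted livers lay below all 6 others, whose ranges overlapped. Whether probes for such similar genes also read RNA of the other was not tested. Cyp2b1 minus Nr1i3 shifted in the same way, with means of 0.01 ± 0.54 in SHPCs of transplanted livers, 2.53 ± 0.47 in SHPCs and 2.62 ± 0.34 in hepatocytes (SD, n = 3 each). Cyp2b2 minus Nr1i3 had means of 2.28 ± 0.66, 1.97 ± 1.03 and 2.54 ± 0.05 in the same order of groups. SHPC array 2 was the lowest at 0.78. Nr1i3 too was nearer to the array median on arrays of transplanted livers than elsewhere.

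**Figure D2:**
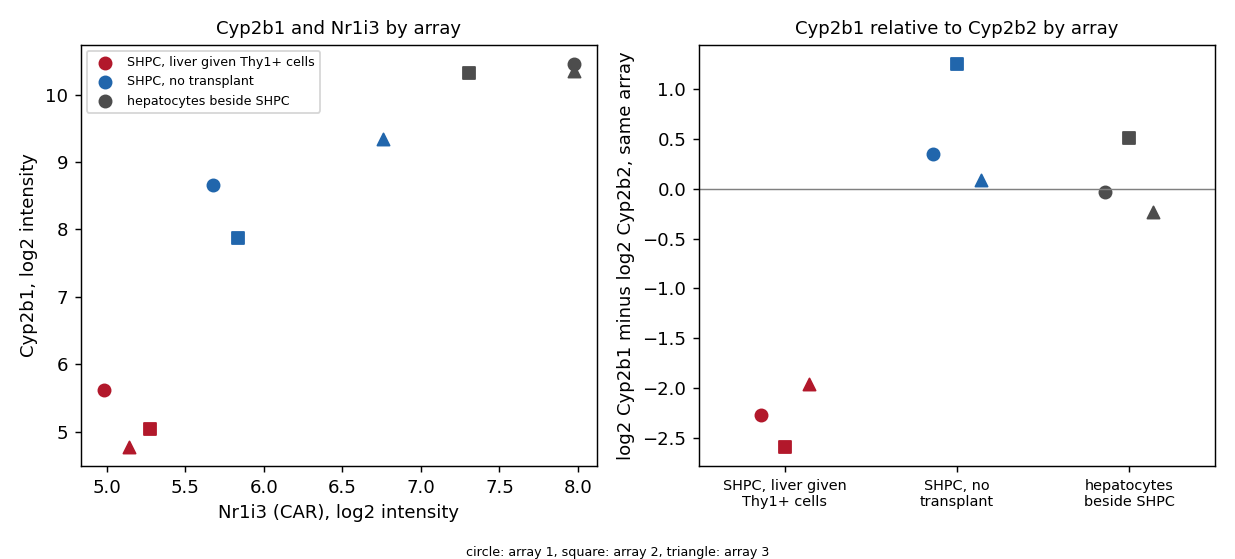
Left, Cyp2b1 against Nr1i3 (log2 intensity on both axes), 1 point per array, and right, log2 Cyp2b1 minus log2 Cyp2b2 on the same array (y axis) by group (x axis). On the left the groups lie in separate regions, and on the right the 3 arrays of transplanted livers lie between −2.59 and −1.96 with all others above −0.24.

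Cyp2b3 encodes a member of the subfamily that phenobarbital does not induce in rat liver. It lay at 5.69, 5.68 and 5.69 in SHPCs of transplanted livers, at 5.69, 5.55 and 5.72 in SHPCs and at 5.99, 5.55 and 6.28 in hepatocytes. All groups overlapped, and array 1 of both SHPC groups held the same deposited value. The difference between the SHPC groups was 0.03 (95% interval −0.36 to 0.43), and it turned to −0.02 without SHPC array 2. Against hepatocytes SHPCs of transplanted livers differed by −0.25 (−0.65 to 0.14) and SHPCs by −0.29 (−0.68 to 0.11). Their size rests on hepatocyte arrays 3 and 2, since they were −0.08 and −0.12 without hepatocyte array 3 and −0.45 and −0.48 without hepatocyte array 2.

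Por, whose enzyme serves all microsomal P450s, differed less between groups than Cyp2b1. Its levels were 8.80, 8.84 and 8.76 in SHPCs of transplanted livers, 9.25, 8.72 and 9.24 in SHPCs, and 9.64, 9.08 and 9.38 in hepatocytes. SHPCs of transplanted livers lay below hepatocytes on every array, and SHPCs overlapped both other groups. The differences were −0.57 ± 0.19 (SE) for SHPCs of transplanted livers against hepatocytes, −0.27 ± 0.19 between the SHPC groups and −0.30 ± 0.19 for SHPCs against hepatocytes. SHPC array 2 was the lowest of the SHPC arrays. Without it the difference between the SHPC groups was −0.45, against −0.18 without SHPC array 1, and that of SHPCs from hepatocytes was −0.12. Without hepatocyte array 1 the difference of SHPCs from hepatocytes was −0.16.

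Across the 3 comparisons, which share groups of arrays, mean levels increased in the order SHPCs of transplanted livers, SHPCs and hepatocytes for Nr1i3, Cyp2b1, Cyp2b2 and Por, where the lower 2 groups of Cyp2b2 and each neighbouring pair of Por overlapped. In limma with Benjamini-Hochberg adjustment at 0.05, 1 of the 6 genes, Cyp2b1, was called lower between the SHPC groups, where 0.00633% of all tested genes were called lower and 0% higher (361 lower and 800 higher at an unadjusted p under 0.05). That call was lost in 8 of 20 alternatives, among them leaving out any 1 array of transplanted livers or hepatocyte array 1 or 3. Cyp2b1, Cyp2b2 and Nr1i3, 3 of the 6, were called lower in SHPCs of transplanted livers against hepatocytes, where 0.317% of tested genes were called lower and 0.861% higher. The Cyp2b2 call there was lost in 10 of 20 alternatives, among them with no filter on dim genes and without any 1 array of transplanted livers, any 1 hepatocyte array or SHPC array 1. Por was called in 4 of 20, among them after renewed quantile normalization and cyclic loess, and Cyp2b3 in 1, with array quality weights. For SHPCs against hepatocytes 0 of the 6 were called beside 0.0317% of tested genes lower and 0.0317% higher. With a fixed block for the replicate number, which pairs these last groups, Nr1i3 was called there and the count over all genes was 35 in place of 10. Over 20 alternatives Nr1i3 was called in 6, Cyp2b1 in 2, and Cyp2b2 and Cyp2b3 in 1 each. Since the genes were chosen with such results known, nothing is read from these counts.

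**Figure D3:**
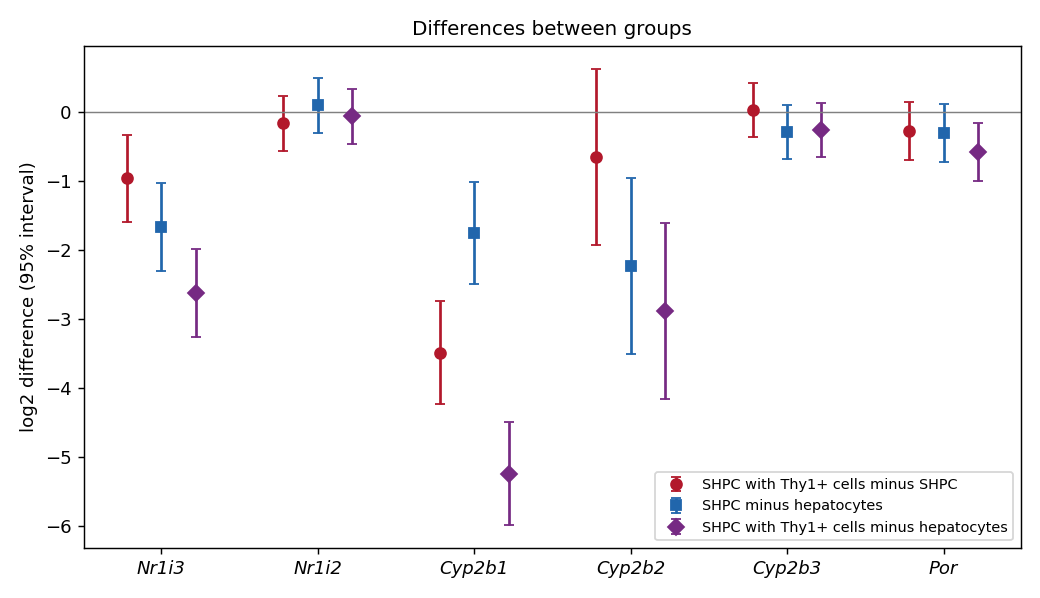
Log2 difference (y axis) of each of the 6 genes (x axis) in the 3 comparisons, with limma's 95% interval as bars. Cyp2b1 reaches −3.48 between the SHPC groups, where Cyp2b2 is at −0.65, and the intervals of Nr1i2 and Cyp2b3 include 0 throughout.

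The other Cyp2b genes on the array gave little to compare. Cyp2b12 and Cyp2b21, known mainly outside the liver, were dim and not tested. Cyp2b15 lay at 5.32, 5.65 and 5.71 in SHPCs of transplanted livers, 5.79, 6.90 and 5.78 in SHPCs, and 5.20, 6.16 and 5.88 in hepatocytes, with array 2 the highest in both groups without transplantation. Without both arrays that stood apart the difference between the SHPC groups was −0.23, against −0.60 with them. Its limma adjusted p-values were 0.705 between the SHPC groups and 0.871 and 1.00 against hepatocytes for SHPCs of transplanted livers and SHPCs.

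Other genes known to respond to CAR or PXR gave no call between the SHPC groups. Of 29 listed, 21 were tested, and 0 were called in either direction in limma, with 3 higher and 2 lower at an unadjusted p under 0.05. Their median difference was 0.06, beside 0.02 over all tested genes, with 12 above 0 and 9 below, and it turned to −0.17 after cyclic loess and −0.07 without both arrays that stood apart. Of those with the smallest p, Sult2a1, a bile acid and steroid sulfotransferase, was at 10.66, 10.92 and 11.06 in SHPCs of transplanted livers and at 11.50, 11.31 and 11.83 in SHPCs. That is a difference of −0.67 ± 0.17 (SE, limma adjusted p = 0.326), with the groups apart. The other 3 pointed up. Ephx1, the microsomal epoxide hydrolase, was at 11.04, 11.21 and 10.95 in SHPCs of transplanted livers against 10.50, 9.03 and 10.13 in SHPCs, a difference of 1.18 ± 0.33 (limma adjusted p = 0.406). The glutathione transferase gene Gsta2 was at 9.61, 9.27 and 9.39 against 8.87, 4.99 and 7.14 in SHPCs, or 2.43 ± 0.76 (limma adjusted p = 0.478). Gsta5, of the same family, differed by 1.56 ± 0.53 (limma adjusted p = 0.533). SHPC array 2 was the lowest array for Ephx1, Gsta2 and Gsta5. Without both arrays that stood apart the differences were 0.76 for Ephx1, 1.42 for Gsta2 and 0.79 for Gsta5, and that of Sult2a1 was −0.78.

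Against hepatocytes the drug efflux pump gene Abcb1b fell in both SHPC groups. Its log2 level was 9.47, 9.46 and 9.23 in SHPCs of transplanted livers, 9.41, 10.002 and 10.01 in SHPCs, and 11.48, 11.43 and 11.19 in hepatocytes. Hepatocytes lay above every SHPC array, while the SHPC groups overlapped. The difference from hepatocytes was −1.98 ± 0.18 in SHPCs of transplanted livers (SE, limma adjusted p = 0.00295), 3.94-fold lower. It was −1.56 ± 0.18 in SHPCs (limma adjusted p = 0.0249), 2.94-fold lower. The first call held in 21 of 21 alternatives. The second ended in 12 of 21, among them leaving out any 1 hepatocyte array, SHPC array 1 or any 1 array of transplanted livers, over which its adjusted p was 0.0678 to 0.140. With that block Abcb1b was called in both comparisons.

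Abcb1b was the 1 called gene among the 21 tested CAR and PXR responsive genes in each of these comparisons. Over all tested genes 0.317% were called lower in SHPCs of transplanted livers and 0.0317% in SHPCs. The list was chosen with earlier results of these data known, so nothing is read from its counts here or below. At an unadjusted p under 0.05, 2 of the 21 were higher and 6 lower in SHPCs of transplanted livers, and 1 higher and 6 lower in SHPCs. Of all 15793 tested genes 1117 were higher and 524 lower, and 365 higher and 286 lower, in that order. The number of limma calls among the 21 in SHPCs of transplanted livers depended on the setting. It was 1 lower in the fit reported, 4 lower after renewed quantile normalization and 6 lower after cyclic loess. Over all genes 186, 328 and 439 were called in these settings, in either direction. Without both arrays that stood apart the number among the 21 was 7 lower and 1 higher, where 170 genes in all were called lower and 405 higher. The list's median difference from hepatocytes was −0.16 in SHPCs of transplanted livers and −0.39 in SHPCs, beside −0.001 and −0.006 over all tested genes. Of the 21 genes 14 and 16 lay below 0, while 7861 and 7680 of all 15793 tested genes lay above 0. Ugt2b1, a glucuronosyltransferase, was at 8.35, 8.17 and 8.49 in SHPCs of transplanted livers, 8.87, 7.47 and 9.82 in SHPCs and 10.60, 10.13 and 10.66 in hepatocytes. It missed the threshold with all arrays, with differences of −2.12 ± 0.46 (SE, limma adjusted p = 0.0732) and −1.74 ± 0.46 (limma adjusted p = 0.555). The transporter gene Abcc3 differed from hepatocytes by −0.89 ± 0.23 in SHPCs of transplanted livers (limma adjusted p = 0.137) and by −1.19 ± 0.23 in SHPCs (limma adjusted p = 0.186). Aldh1a1, which makes retinoic acid, differed by −1.05 ± 0.28 (limma adjusted p = 0.152) and −1.08 ± 0.28 (limma adjusted p = 0.529). For both genes all SHPC arrays of either group lay below all hepatocyte arrays. Sult2a1 differed from hepatocytes by −0.69 ± 0.17 in SHPCs of transplanted livers (limma adjusted p = 0.101). Gsta2, singled out after its values were seen, had the largest difference of the list there and pointed up. It was at 9.61, 9.27 and 9.39 in SHPCs of transplanted livers against 6.68, 6.003 and 7.31 in hepatocytes, or 2.76 ± 0.76 (limma adjusted p = 0.170), with the groups apart. Without both arrays that stood apart Ugt2b1, Abcc3, Aldh1a1, Sult2a1 and Gsta2 were called in SHPCs of transplanted livers against hepatocytes, with differences of −2.29, −1.02, −1.18, −0.74 and 2.43 and limma adjusted p from 0.00438 to 0.0458. Cyp3a9 and Ces2c were also called there, at −2.47 and −0.62 (limma adjusted p = 0.0233 and 0.0335). With all arrays Cyp3a9 differed from hepatocytes by −1.95 ± 0.59 in SHPCs of transplanted livers and −1.82 ± 0.59 in SHPCs (limma adjusted p = 0.227 and 0.768). Cyp3a18 differed by 1.03 ± 0.55 and 1.06 ± 0.55, and Cyp3a23-3a1 by −0.40 ± 0.29 and −0.36 ± 0.29, in the same order. The first Cyp3a18 difference was 0.45 without both arrays that stood apart. Cyp3a2, at 3.81, 3.38 and 4.35 in SHPCs against 2.72, 2.10 and 3.40 in hepatocytes, had the largest positive difference of the list in SHPCs (1.11 ± 0.32, limma adjusted p = 0.634), but it was dim.

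**Figure D4:**
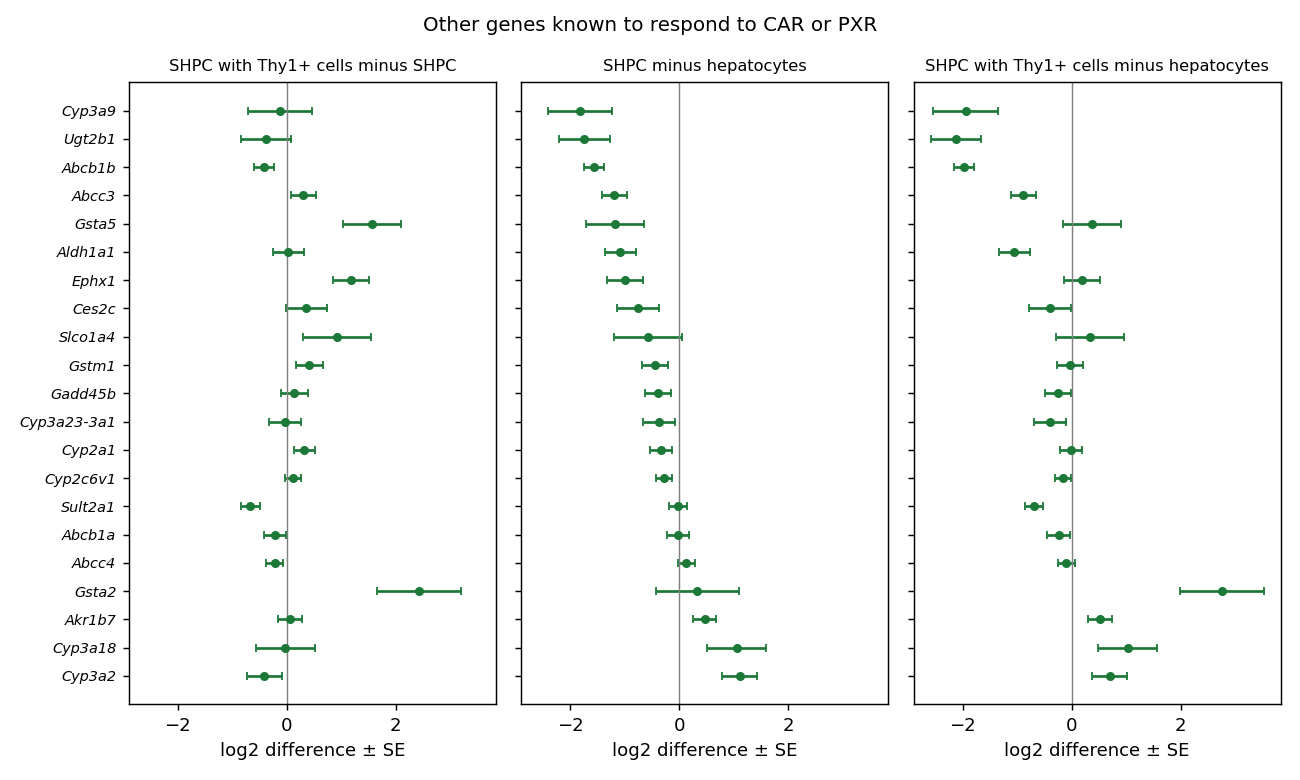
Log2 difference ± SE (x axis) of the 21 tested genes known to respond to CAR or PXR (y axis), in the 3 comparisons. Between the SHPC groups they lie on both sides of 0, from −0.67 to 2.43, and against hepatocytes most lie below 0 in SHPCs.

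Genes whose proteins hold, join or regulate CAR and PXR showed 0 calls in limma in the 3 comparisons with the deposited normalization. In SHPCs of transplanted livers against hepatocytes 1 was called higher and 1 lower after renewed quantile normalization and after cyclic loess. There 1 was called lower, Hsp90ab1, without both arrays that stood apart. Over all genes 328, 439 and 575 were called in these settings. Of 26 listed, 23 were tested, with 2 genes higher and 0 lower at an unadjusted p under 0.05 between the SHPC groups. Their median differences were 0.23 between the SHPC groups, 0.12 for SHPCs of transplanted livers against hepatocytes and −0.02 for SHPCs against hepatocytes. The first was 0.06 without both arrays that stood apart, and the second −0.01 after renewed quantile normalization. Against hepatocytes, 4 higher and 1 lower had an unadjusted p under 0.05 in SHPCs of transplanted livers, and 1 higher and 0 lower in SHPCs. Over all 15793 tested genes these counts were 1117 higher and 524 lower, and 365 higher and 286 lower. Nr3c1, the glucocorticoid receptor, which raises CAR and PXR levels in hepatocytes, was at 8.05, 8.08 and 8.17 in SHPCs of transplanted livers, 7.80, 6.95 and 7.56 in SHPCs and 7.81, 7.11 and 7.50 in hepatocytes. It differed by 0.66 ± 0.23 between the SHPC groups (SE, limma adjusted p = 0.568). The coactivator gene Ppargc1a differed from hepatocytes by 1.29 ± 0.31 in SHPCs of transplanted livers (limma adjusted p = 0.106), all arrays above. Hsp90ab1, a chaperone that holds CAR in the cytoplasm, differed by −0.60 ± 0.22 in the same comparison (limma adjusted p = 0.346), all arrays below. Stub1, a ubiquitin ligase that works with such chaperones, differed by 0.49 ± 0.19 between the SHPC groups (limma adjusted p = 0.625).

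Genes listed for electron transfer to P450s other than Por, of which 9 of 10 were tested, had 0 calls in limma in each comparison. The list also held the heme oxygenase genes Hmox1 and Hmox2, and its median between the SHPC groups is the value of Hmox1. At an unadjusted p under 0.05, 2 were higher between the SHPC groups and 2 in SHPCs of transplanted livers against hepatocytes, with 0 in SHPCs against hepatocytes. Over all 15793 tested genes 800 and 1117 were higher in the first 2 of these comparisons. Medians of the list were 0.17, 0.07 and −0.05 in that order of comparisons. The second median turned to −0.04 after cyclic loess and −0.06 without both arrays that stood apart. Cyb5r3, the reductase of cytochrome b5, was at 10.46, 10.55 and 10.34 in SHPCs of transplanted livers, 9.81, 7.97 and 9.39 in SHPCs and 9.62, 8.42 and 9.30 in hepatocytes. The arrays of transplanted livers lay above all others, with differences of 1.39 ± 0.44 from SHPCs (SE, limma adjusted p = 0.478) and 1.33 ± 0.44 from hepatocytes (limma adjusted p = 0.275). Cyb5b, a cytochrome b5 of mitochondria, differed by 0.95 ± 0.36 and 0.90 ± 0.36 (limma adjusted p = 0.624 and 0.417). Array 2 of both groups without transplantation was the lowest for both genes. Without these arrays the differences from SHPCs were 0.85 for Cyb5r3 and 0.55 for Cyb5b. Those from hepatocytes were 0.99 and 0.55, and both genes were then called against hepatocytes (limma adjusted p = 0.0181 and 0.0253). After cyclic loess 1 gene of the list was called higher and 1 lower in that comparison, beside 439 genes called in all. Of 8 genes of heme synthesis, which supplies the P450s' prosthetic group, 6 were tested, with 0 calls and 0 at an unadjusted p under 0.05 in each comparison, and medians of 0.33, 0.22 and −0.09. Without both arrays that stood apart the first 2 of these medians were 0.05 and 0.06, and 1 gene, Fech, was called lower in SHPCs of transplanted livers against hepatocytes.

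Pericentral genes, expressed around the central veins where Cyp2b enzymes are also found, were set beside Cyp2b1. Of 12 listed, 10 were tested, and Glul and Cyp1a2 had no probe set with a single symbol. In limma 0 of the 10 were called between the SHPC groups, with 1 at an unadjusted p under 0.05. The median difference was 0.02, which turned to −0.11 after cyclic loess. Against hepatocytes 2 fell in SHPCs of transplanted livers and 1 in SHPCs, with medians of −0.345 and −0.551, beside 0.317% and 0.0317% of all tested genes called lower. At an unadjusted p under 0.05, 5 and 7 of the 10 were lower, beside 524 and 286 of all 15793 tested genes. After cyclic loess 4 and 2 of the 10 were called lower, where 439 and 34 genes were called in all. Without both arrays that stood apart 4 and 0 were called lower, beside 575 and 48 genes called in all. This list too was chosen with earlier results of these data known, so nothing is read from its counts. Slc1a2, a glutamate transporter, was at 5.09, 4.22 and 4.44 in SHPCs of transplanted livers, 4.67, 4.94 and 5.37 in SHPCs and 7.10, 6.82 and 6.78 in hepatocytes. Its differences from hepatocytes were −2.31 ± 0.25 (SE, limma adjusted p = 0.00346) and −1.90 ± 0.25 (limma adjusted p = 0.0314), and the second call ended in 10 of 21 alternatives. Among them were leaving out SHPC array 1, array 2 or 3 of transplanted livers or any 1 hepatocyte array, with limma adjusted p from 0.0671 to 0.196. Tbx3, a transcription factor downstream of Wnt signals, fell by 0.90 ± 0.17 in SHPCs of transplanted livers (limma adjusted p = 0.0368), a call that also ended in 10 of 21 alternatives. These included leaving out any 1 array of transplanted livers, SHPC array 1 or 3, or hepatocyte array 2 or 3, with limma adjusted p from 0.0517 to 0.191. It was at 4.96, 4.86 and 4.68 there and at 5.39, 5.84 and 5.97 in hepatocytes. In SHPCs it differed by −0.995 ± 0.17 (limma adjusted p = 0.114). Cyp2e1, the ethanol-oxidising P450, differed by −0.65 ± 0.18 and −0.64 ± 0.18 (limma adjusted p = 0.167 and 0.579), with all SHPC arrays of both groups below the hepatocytes.

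Likeness to Cyp2b1 was measured by Pearson's r of log2 levels over the 9 arrays. It was taken among 983 other tested genes with an SD of at least 0.5. These values are a description, since the 9 arrays fall into 3 groups. The most alike were the carnitine transporter gene Slc22a5 (r = 0.974), Hsdl2 (0.966), the cholesterol ester hydrolase gene Nceh1 (0.964), Eci1, an enzyme of fatty acid oxidation (0.962), and the peroxisome division gene Pex11a (0.956). Nr1i3 stood at rank 17 with 0.911 and Cyp2b2 at rank 36 with 0.832. Like Cyp2b1, these 5 genes had their lowest group mean in SHPCs of transplanted livers and their highest in hepatocytes. Eci1, for example, averaged 7.63 in SHPCs of transplanted livers, 9.88 in SHPCs and 10.26 in hepatocytes.

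Genes most like Nr1i3 were others than those most like Cyp2b1. They were Acsm5, an acyl-CoA ligase of mitochondria (r = 0.970), the racemase gene Amacr (0.968), Rspo3, a secreted amplifier of Wnt signals (0.958), Tex36 (0.956) and Abcb1b (0.942). Cyp2b1 stood at rank 11 and Cyp2b2 at rank 14, with 0.911 and 0.907. Rspo3 averaged 4.65 in SHPCs of transplanted livers, 4.89 in SHPCs and 5.98 in hepatocytes. For Nr1i2 the 5 highest values were 0.532 to 0.622, for Zfp354a, Or52j3, Mir194-1, Or9e1 and Fpgs. Against it Cyp2b1 reached 0.159 and Nr1i3 0.142.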

How the data were processed

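RNA of 3 groups was hybridised to 9 Affymetrix arrays, 3 per group, after extraction from laser-microdissected frozen liver sections 7 µm thick. The deposited intensity values, 1 per probe set on the linear scale, were made by the authors with RMA (background correction, normalization between arrays, summary per probe set), per the submitters' processing notes; the sources used here name no version or settings. Of 36685 probe sets, 18511 had a single symbol in the platform annotation. The probe set with the highest mean stood for its gene, and 15793 of 18166 genes above the array's 25th percentile on at least 3 arrays were tested on the log2 scale with limma 3.58.1 in R 4.3.3 (3 group means, 6 residual degrees of freedom, Benjamini-Hochberg adjustment at 0.05), checked on simulated data. The number of arrays limits the precision. Promoter windows were aligned with Biopython 1.88.

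The members and lists were chosen with earlier results of these data known. List members were named when called or among the 4 smallest p of a list and comparison, of which the text gives a selection, and likeness named the 5 highest r. Ces2c, Cyp3a9, Cyp3a18 and Cyp3a23-3a1 were named beyond that rule. Equal replicate numbers in SHPCs and hepatocytes deviated together (correlations of 0.53, 0.70 and 0.34 over genes, against −0.61 to 0.48 for unequal numbers). This was taken as possible pairing, while the fits reported have no block. The unequal pair 3 and 1 reached 0.48, above the same-number pair 3, and array 2 of both groups stood apart, whose part in these correlations was not tested. In the other comparisons same-number correlations were −0.09 to 0.00. Alternatives were other normalizations, a pseudocount of 16, other filters, fits of the compared groups, array weights, replicate blocks, all probe sets and leaving arrays out.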

Additional observations from a re-analysis of the deposited data

How the results depend on the processing

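The direction of Nr1i3, Cyp2b1, Cyp2b2 and Por held in all 3 comparisons in the 12 of 20 alternatives that can change a difference, the other 8 (filters, blocks, fits of the compared groups, arrays of the group not compared) leaving it as it is by construction. Cyp2b3 changed sign between the SHPC groups in 3 of them, and Nr1i2 in 1 for SHPCs against hepatocytes and in 4 for SHPCs of transplanted livers against hepatocytes. Over all alternatives the Cyp2b1 difference between the SHPC groups lay between −3.87 and −2.997, and it was among the limma calls in 12 of 20. Cyp2b2 in SHPCs of transplanted livers against hepatocytes was among them in 10 of 20, and Cyp2b1 and Nr1i3 in 20 of 20. Median centring raised the median of all genes in the comparison of the SHPC groups to 0.12, where it was 0.02. The number of called genes depended on the setting more than the values did, and the cause was not tested.

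In the order SHPCs of transplanted livers against SHPCs, SHPCs against hepatocytes, and SHPCs of transplanted livers against hepatocytes, limma called 1, 10 and 186 genes. After renewed quantile normalization the counts were 17, 17 and 328, after cyclic loess 40, 34 and 439, and after median centring 0, 0 and 47. With log2(value + 16) the first 2 were 0 and 6. In fits of the compared groups alone they were 0, 0 and 304, with array quality weights 259, 375 and 2685, and without both arrays that stood apart 23, 48 and 575. With a fixed replicate block they were 64, 35 and 367 and with a random one 10, 29 and 305, where only SHPCs and hepatocytes may be paired by the numbers. With all probe sets the last 2 were 0 and 63. Leaving out single arrays gave 0 to 24, 0 to 53 and 31 to 472. Where limma called 0 genes, 470 to 838 were higher and 167 to 372 lower at an unadjusted p under 0.05 between the SHPC groups, and 245 to 609 and 179 to 511 for SHPCs against hepatocytes, beside 800 and 361, and 365 and 286, in the fits reported.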
